A study of Mus musculus with 4 samples.

Results

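The hypoxia and glycolysis genes described here are 33 genes. They were chosen by name for their known part in the response to low oxygen or in the breakdown of glucose. Earlier results of these data were known at that choice, so counts of members against all genes are descriptions, not independent tests. All 33 were found among the 32285 genes of the count tables from 4 droplet single-cell RNA-seq libraries of mouse mammary organoids. They comprise 14 genes of the hypoxia response (7 secreted factors and stress genes, 2 mitophagy receptors and 5 oxygen-dependent hydroxylases and demethylases), Hif1a, 3 enzymes that control glycolysis and its exit into mitochondria, 14 glycolysis genes from glucose uptake to lactate, and Mif.

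The 4 libraries were a wild-type control, a wild-type culture exposed to HU, a Brca2mut/WT control and a Brca2mut/WT culture exposed to HU. Brca2mut/WT organoids came from mice with a germline truncating mutation in 1 Brca2 allele, so every cell type of the gland carried it, and wild-type organoids carried no such allele. HU is hydroxyurea, a ribonucleotide reductase inhibitor that slows DNA replication by lowering the supply of deoxynucleotides. The study's methods give 1 mM HU for 24 h and 4 days of recovery at each of several passages, with controls left untreated, for organoids from mice aged 9 to 11 months. The methods give 5% oxygen for the mammary organoid cultures, and frozen organoids were thawed and cultured for 3 days before capture. The labels call the cells mammary epithelial cells. Organoids were sampled at passages 0 and 4, but no label gives the passage of a library, so cells of both passages may be mixed in each. Each library title names 2 replicates, while the methods name 3 mice per condition, and 4 antibody tags were counted in each library, but the labels hold no key from tags to cultures. Each condition is therefore 1 library, so HU was not tested within a genotype, nor its difference between genotypes, and genotype was compared without a test.

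Cells are able to sense oxygen because prolyl hydroxylases use it to mark the HIF-1α protein for destruction, so that a shortage of oxygen lets HIF-1α accumulate without a change in its mRNA. HIF-1α with its partner ARNT then binds a short DNA core in target genes, among them angiogenic ligands, mitophagy receptors, the hydroxylases themselves and most glycolytic enzymes. In the mammary gland, the HR- luminal lineage includes the progenitors of milk-secreting alveolar cells, HR+ luminal cells carry hormone receptors, and basal cells form the contractile outer layer.

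Of all cells, 17360 of 33268 cells passed the filters of 1000 to 6000 detected genes and under 5% mitochondrial UMIs (unique molecular identifiers, the counted molecules). By a rule on Krt14 and Areg, 14008 cells were HR- luminal (Krt14 and Areg both under 300 CPM), 2217 basal (Krt14 of at least 500 CPM) and 569 HR+ luminal (Areg of at least 300 CPM), where CPM is UMIs per 1000000 gene UMIs. The median UMI count of HR- luminal cells ran from 24718 to 27596 over the libraries, and their median mitochondrial share from 3.12% to 3.38%. Summed basal markers (Krt5, Trp63, Acta2 and 5 others) were at 3204 to 3568 CPM in basal cells and at 123 to 161 CPM in HR- luminal cells. Summed HR+ markers were at 4896 to 7952 CPM in HR+ luminal cells and at 259 to 293 CPM in HR- luminal cells. The immune list of 7 genes summed to at most 1.42 CPM in any lineage and library. Of the fibroblast list, Dcn alone passed the level filter in HR+ luminal cells, where Col3a1 and Lum were at 0. Dcn was high in these cells, at 1149 ± 405 CPM (SD, n = 4 libraries) against 3.63 ± 1.86 in HR- luminal cells. In HR+ luminal cells the fibroblast list summed to 704 CPM in the wild-type control and 1213 in wild-type HU. For Brca2mut/WT it summed to 1661 and 1006. In all, 129 barcodes occurred in 2 libraries, and leaving out the 136 kept cells that carry them moved no count of lower members by more than 1.5 times.

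In HR- luminal cells, the hypoxia response genes were lower in the HU library than in the control library of both genotypes, while the glycolysis genes differed less. A gene was called past the fold where its lower CPM, from UMIs summed over the cells of a lineage, was at most 0.8 of its higher CPM and the exact 95% counting interval of their ratio excluded 1. In wild-type organoids, 12 of the 31 members at or above 5 CPM were lower, against 5.72% of 9364 genes, and 0 were higher, against 3.6% of genes. In Brca2mut/WT organoids, 18 of 31 were lower, against 4.05% of genes, and 0 were higher, against 3.06%. The median log2 ratio of HU over control over the members was -0.21 in wild-type and -0.40 in Brca2mut/WT cells, where that of all genes was 0.01 in each. Counting intervals cover counting error only, and with 1 library a condition the spread between cultures is not in them. The members were chosen with earlier results of these data known, so these shares are descriptions.

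Over both genotypes, HU was also tested with edgeR's quasi-likelihood test with genotype as a block, a fit chosen after the data were seen that leaves 1 residual degree of freedom. For HR- luminal cells it called 19 of 31 members lower at an adjusted p under 0.05, against 8.3% of genes, and 0 higher, against 4.94%. In basal cells it called 10 of 32 lower, against 1.22%, and 0 higher, against 0.44%. HR+ luminal cells had 0 members called in either direction, where 0% of genes were lower and 0.0105% higher. Adm had the largest HR- luminal estimate, a log2 difference of -1.24 (adjusted p = 2.2e-16 by edgeR), while Hif1a was at -0.08 (adjusted p = 0.60). In this fit the genotypes stand as the replicates of HU, and the estimate of the spread is shared across genes. With 1 residual degree of freedom, its p-values do not measure the spread between cultures. Without the block, 6 members were called lower in HR- luminal cells, where 49 of 9364 genes were. In basal cells 0 members were, where 0 of 9763 genes were. Most calls, of members and of all genes, thus rest on the pairing by genotype.

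**Figure D1:**
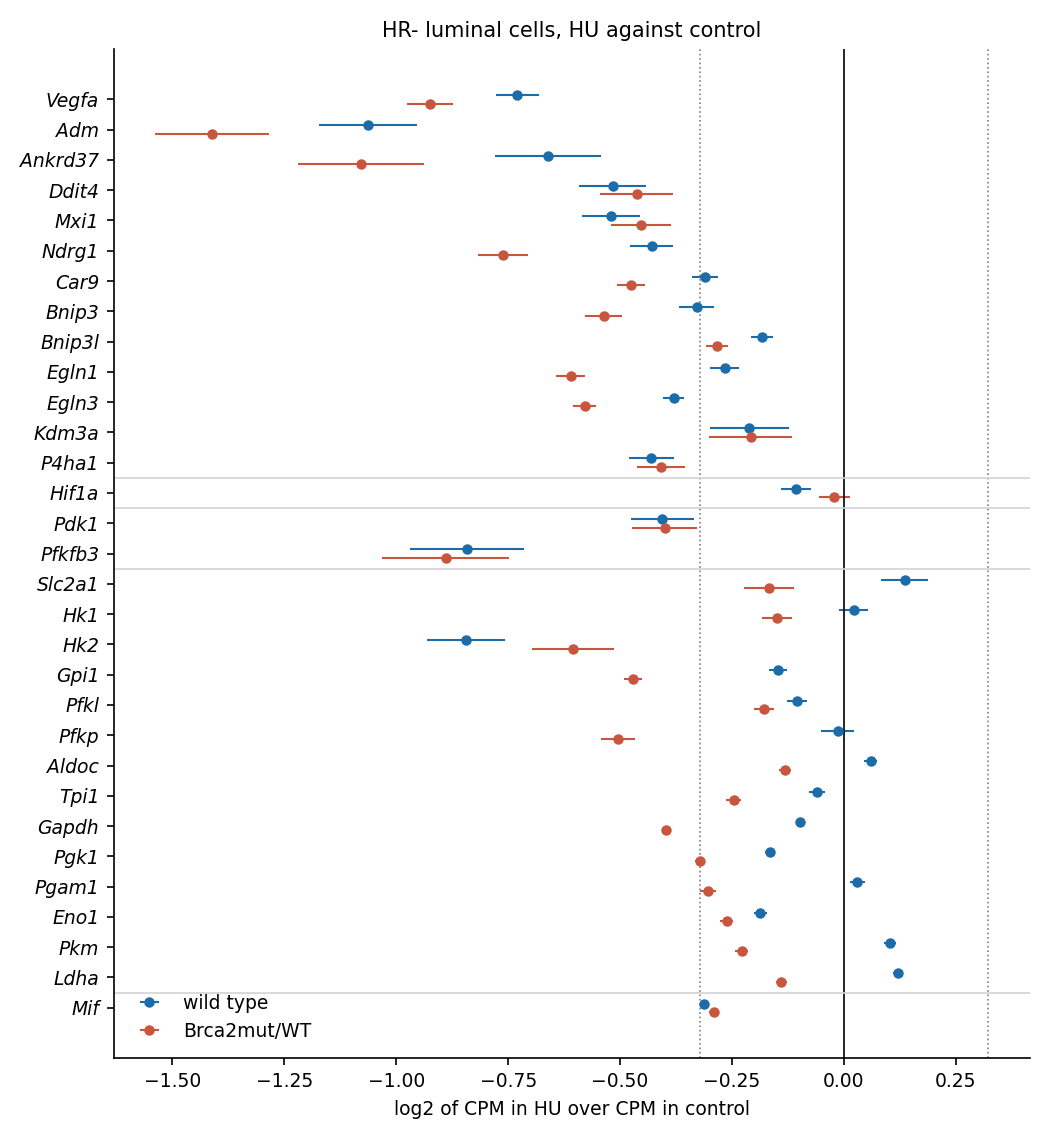
Log2 ratio of CPM in the HU library over the control library in HR- luminal cells, for the 31 members at or above 5 CPM, with exact 95% counting intervals. Dotted lines mark a ratio of 0.8 either way. Hypoxia response genes (top block) lie left of 0 in both genotypes. Glycolysis genes (the block from Slc2a1 to Ldha), except Hk2, lie closer to 0 in wild-type than in Brca2mut/WT cells.

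The 12 genes lower in both genotypes were Vegfa, Adm, Ankrd37, Ddit4, Mxi1, Ndrg1, Bnip3, Egln3, P4ha1, Pdk1, Pfkfb3 and Hk2. Of all genes tested, 2.11% were lower in both. By role, the wild-type comparison had 9 of 13 hypoxia response genes lower (median log2 ratio -0.43) and 1 of 14 glycolysis genes (median -0.04). The Brca2mut/WT comparison had 11 of 13 (median -0.54) and 5 of 14 (median -0.25). Of all genes, 5.72% were lower in the wild-type and 4.05% in the Brca2mut/WT comparison.

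Adm encodes adrenomedullin, a vasodilator peptide, and had the largest ratio of the members in HR- luminal cells. Wild-type cells had 22.8 CPM without HU and 10.9 with it, and Brca2mut/WT cells 25.1 and 9.43, the order of libraries used throughout. It was thus 2.09-fold lower with HU in wild-type cells (95% counting interval 1.94 to 2.26) and 2.66-fold lower in Brca2mut/WT cells (2.44 to 2.90). The 4 antibody tags of each library give a view of its spread. In tags 1 to 4, the wild-type control pools were at 27.3, 10.98, 21.9 and 14.3 CPM and the HU pools at 12.5, 5.81, 12.5 and 9.33. The Brca2mut/WT control pools were at 30.4, 26.7, 26.3 and 10.6 CPM and the HU pools at 8.48, 4.27, 11.2 and 20.5. The pools of control and HU overlapped in both genotypes, and tag 4 of the Brca2mut/WT pair went the other way.

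Vegfa, the main endothelial growth factor, was at 104, 62.4, 118 and 62.2 CPM in the same order of libraries. It was 1.66-fold lower with HU in wild-type (1.60 to 1.71) and 1.90-fold lower in Brca2mut/WT cells (1.83 to 1.97). Its wild-type pools were at 119, 70.2, 109 and 45.6 CPM in the control and at 73.2, 23.5, 80.8 and 25.6 in HU. Its Brca2mut/WT pools were at 133, 125, 139 and 37.9 CPM in the control and at 65.3, 35.4, 73.6 and 41.9 in HU. Pools overlapped again, and tag 4 was the lowest pool of each control library.

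Ankrd37, an ankyrin-repeat protein and a known HIF target, was at 16.1, 10.2, 17.1 and 8.10 CPM. The wild-type pools were at 20.1, 18.6, 13.6 and 7.89 CPM in the control and at 12.6, 3.62, 12.8 and 4.24 in HU, and the Brca2mut/WT pools at 18.5, 20.8, 16.1 and 10.9 in the control and at 8.44, 3.48, 10.1 and 3.42 in HU. It was 1.58-fold lower in wild-type (1.46 to 1.72) and 2.11-fold lower in Brca2mut/WT cells (1.92 to 2.33). Ankrd37 was the only member of 31 whose 4 HU pools all lay below the 4 control pools, in Brca2mut/WT cells, where 1.33% of all genes did so. In wild-type cells 0 of 31 members did so, against 5.02% of all genes.

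Ddit4 (REDD1), a stress-induced inhibitor of mTORC1, was at 38.4, 26.9, 37.9 and 27.5 CPM. By tag, wild-type control pools had 35.5, 63.9, 34.4 and 40.7 CPM and HU pools 24.7, 36.1, 20.6 and 38.0, while Brca2mut/WT control pools had 31.2, 55.0, 32.2 and 33.4 and HU pools 21.0, 50.7, 21.7 and 45.0. Its pools with tags 2 and 4 were the higher ones in every library. Mxi1, a MYC antagonist of the MAX network, was at 50.1, 35.0, 55.0 and 40.2 CPM. Wild-type pools of Mxi1 were at 56.4, 39.9, 50.5 and 31.6 CPM without HU and at 39.5, 19.8, 43.5 and 16.0 with it, and Brca2mut/WT pools at 56.1, 61.5, 61.0 and 30.4 without and at 41.5, 25.6, 46.2 and 25.9 with it. Both genes were lower by similar folds in the 2 genotypes, Ddit4 by 1.43 (1.36 to 1.51) and 1.38 (1.30 to 1.46) and Mxi1 by 1.43 (1.37 to 1.5004) and 1.37 (1.31 to 1.43).

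Ndrg1, a stress-responsive differentiation gene, was at 88.7, 65.9, 94.9 and 56.0 CPM. For wild-type pools of Ndrg1, control values were 105, 36.1, 93.6 and 32.5 CPM and HU values 72.7, 30.6, 84.2 and 35.2, and for Brca2mut/WT pools 131, 37.7, 123 and 42.9 and 59.2, 14.9, 69.0 and 43.9. Tags 1 and 3 were higher than tags 2 and 4 in every library, and in tag 4 neither genotype had a lower level with HU. Car9, the cell-surface carbonic anhydrase IX that exports acid, was at 236, 190.5, 258 and 185 CPM and passed the fold in Brca2mut/WT cells only, although its wild-type ratio of 1.24 (1.22 to 1.27) lay just inside the threshold.

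Bnip3, a mitophagy receptor on the outer mitochondrial membrane, was at 127, 101, 157 and 108 CPM. The 4 control pools of Bnip3 had 143, 109, 134 and 61.1 CPM in wild-type cells and 171, 174, 169.7 and 71.4 in Brca2mut/WT cells, and the 4 HU pools 119.9, 42.8, 131 and 32.4 and 118, 42.3, 131 and 56.1. It was 1.26-fold lower in wild-type (1.22 to 1.29) and 1.45-fold lower in Brca2mut/WT cells (1.41 to 1.49), and in wild-type cells the pools differed most in tags 2 and 4 and least in tag 3. Its paralog Bnip3l was at 313, 276, 359 and 295 CPM and passed the fold in neither genotype.

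Among the oxygen-dependent enzymes, Egln3 (PHD3), a prolyl hydroxylase of HIF-1α and itself a HIF target, was at 336, 258, 416 and 279 CPM. By tag, wild-type control pools had 367, 294, 341 and 234 CPM and HU pools 288, 139, 321 and 149, while Brca2mut/WT control pools had 427, 513, 433 and 214 and HU pools 294, 217, 305 and 138. It was lower with HU in all 4 tags of both genotypes, by 1.30-fold over the library in wild-type (1.28 to 1.32) and 1.49-fold in Brca2mut/WT cells (1.47 to 1.52). Egln1 (PHD2), the main HIF-1α prolyl hydroxylase, was at 186, 155, 239.9 and 157 CPM, so that it passed the fold in Brca2mut/WT cells at 1.53 (1.49 to 1.56) and not in wild-type cells at 1.20 (1.18 to 1.23).

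P4ha1, the catalytic subunit of collagen prolyl 4-hydroxylase, was at 81.0, 60.1, 87.4 and 65.9 CPM. Wild-type pools of P4ha1 were at 92.0, 57.1, 79.7 and 60.8 CPM without HU and at 74.9, 35.0, 69.5 and 29.4 with it, and Brca2mut/WT pools at 87.7, 105, 90.8 and 62.5 without and at 66.1, 59.9, 73.3 and 48.2 with it, lower with HU in every tag. Its paralog P4ha2 was at 5.80, 3.58, 5.05 and 2.37 CPM, under the level filter in this lineage. The histone demethylase Kdm3a was at 23.9, 20.6, 26.4 and 22.9 CPM and passed the fold in neither genotype.

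Hif1a mRNA passed the fold in neither genotype in HR- luminal cells. It was at 162, 150.5, 182 and 179 CPM, a ratio of control over HU of 1.08 in wild-type (1.05 to 1.10) and 1.01 in Brca2mut/WT cells (0.991 to 1.04). For wild-type pools of Hif1a, control values were 161, 145, 167 and 165 CPM and HU values 164, 111, 168 and 119, and for Brca2mut/WT pools 193, 141, 192 and 199.6 and 178, 135, 203 and 159.6. The pools overlapped in both genotypes. Within tags, Hif1a was lower past the fold in tags 2 and 4 of the wild-type pair. It was also lower past the fold in tag 4 of the Brca2mut/WT pair, which rests on 117 HU cells. The HIF-1α protein was not measured.

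Promoters of the members were read from RefSeq (GRCm38.p6), 250 bases before to 50 bases after a transcription start. Shown are the 4 members with 1 listed promoter that had the largest mean decrease in HR- luminal cells among the 10 members lower in all 6 comparisons described further on. Capitals mark the hypoxia response core, searched as ACGTG or GCGTG on the strand shown and as CACGT or CACGC for the other strand.
Adm, chr7:110627407-110627706, plus strand: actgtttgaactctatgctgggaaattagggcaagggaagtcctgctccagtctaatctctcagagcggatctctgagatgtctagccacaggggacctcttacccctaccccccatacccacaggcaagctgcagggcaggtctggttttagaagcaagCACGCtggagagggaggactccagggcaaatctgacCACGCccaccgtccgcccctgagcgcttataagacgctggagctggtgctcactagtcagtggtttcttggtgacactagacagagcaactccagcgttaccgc
Ankrd37, chr8:45999801-46000100, minus strand: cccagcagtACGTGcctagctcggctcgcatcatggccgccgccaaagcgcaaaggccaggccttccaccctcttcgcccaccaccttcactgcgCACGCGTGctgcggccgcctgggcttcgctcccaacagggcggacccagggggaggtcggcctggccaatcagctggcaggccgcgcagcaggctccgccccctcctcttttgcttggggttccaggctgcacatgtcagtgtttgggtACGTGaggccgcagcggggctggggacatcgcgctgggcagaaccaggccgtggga
Hk2, chr6:82774405-82774704, minus strand: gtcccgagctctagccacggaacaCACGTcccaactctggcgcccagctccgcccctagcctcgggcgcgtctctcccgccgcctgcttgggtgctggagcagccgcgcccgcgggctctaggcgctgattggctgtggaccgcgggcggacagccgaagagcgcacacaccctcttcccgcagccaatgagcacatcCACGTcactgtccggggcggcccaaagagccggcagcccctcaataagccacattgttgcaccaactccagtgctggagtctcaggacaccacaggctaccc
Ddit4, chr10:59951721-59952020, minus strand: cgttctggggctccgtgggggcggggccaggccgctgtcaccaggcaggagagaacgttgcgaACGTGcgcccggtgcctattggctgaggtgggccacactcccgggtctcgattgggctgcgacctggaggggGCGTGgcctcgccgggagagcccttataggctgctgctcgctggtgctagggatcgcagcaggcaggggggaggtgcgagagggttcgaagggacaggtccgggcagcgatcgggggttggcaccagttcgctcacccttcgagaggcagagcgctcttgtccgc

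The core was found at 2 places in Adm, Hk2 and Ddit4 and at 4 in Ankrd37, where cores on opposite strands overlap by 2 bases at 1 site. A CACGTG palindrome, which holds the core on both strands, was counted as 1 place. Of 44 listed promoters of 31 members, 35 (79.5%) held the core, as did 43.8% of the 32851 promoters in the table. The members were chosen by their known role in the response to low oxygen or in glycolysis, so these shares are no test. They also cover members past the fold in neither genotype in HR- luminal cells, such as Ldha and Hk1. The core is a short motif in promoters rich in CG, and a match is a description of the letters, not a bound site. Bnip3l and Ndrg1 had no entry.

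Among the enzymes that set the rate of glycolysis or divert its product, Pfkfb3, which makes the activator of phosphofructokinase, was at 15.3, 8.54, 15.4 and 8.34 CPM in HR- luminal cells. The 4 control pools of Pfkfb3 had 17.4, 8.65, 16.9 and 5.23 CPM in wild-type cells and 18.0, 14.4, 17.3 and 6.15 in Brca2mut/WT cells, and the 4 HU pools 9.43, 4.83, 10.3 and 4.53 and 8.51, 5.17, 9.21 and 6.27. It was 1.79-fold lower in wild-type (1.64 to 1.96) and 1.85-fold lower in Brca2mut/WT cells (1.68 to 2.04), and its pools differed least in tag 4 of each. Pdk1, the kinase that shuts pyruvate dehydrogenase, was at 40.9, 30.8, 46.9 and 35.5 CPM. By tag, wild-type control pools had 42.1, 32.9, 45.5 and 25.0 CPM and HU pools 35.3, 18.2, 37.2 and 16.4, while Brca2mut/WT control pools had 49.8, 52.9, 49.2 and 28.5 and HU pools 37.8, 27.0, 39.7 and 16.2. In every tag the HU pool was the lower. Pfkfb4 was at most 0.943 CPM in HR- luminal cells and was not compared.

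Hk2, the inducible hexokinase, was the only glycolysis gene past the fold in both genotypes. It was at 32.9, 18.3, 32.0 and 21.0 CPM, 1.80-fold lower in wild-type (1.69 to 1.91) and 1.52-fold lower in Brca2mut/WT cells (1.43 to 1.62). Wild-type pools of Hk2 were at 38.1, 32.1, 31.3 and 19.7 CPM without HU and at 20.4, 10.8, 22.3 and 10.6 with it, and Brca2mut/WT pools at 31.6, 39.2, 35.6 and 16.6 without and at 21.4, 17.6, 23.9 and 11.97 with it. The constitutive hexokinase Hk1 was at 154, 156, 195 and 176 CPM and the glucose transporter Slc2a1 (GLUT1) at 59.4, 65.3, 70.8 and 63.0 CPM, with neither past the fold. Slc2a1 was the only member whose 4 wild-type HU pools all lay above the 4 control pools, where 2.85% of genes did so.

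Of the other steps from glucose to triose, Gpi1, which converts glucose 6-phosphate to fructose 6-phosphate, was at 481, 434, 652 and 471 CPM, and the phosphofructokinase Pfkp at 130.2, 129, 174 and 123 CPM. Both passed the fold in Brca2mut/WT cells, Gpi1 at 1.39 (1.37 to 1.41) and Pfkp at 1.42 (1.38 to 1.46), and neither did in wild-type cells. The liver-type phosphofructokinase Pfkl (364, 338, 453 and 400.4 CPM), the aldolase Aldoc (874, 911, 1074 and 980.3 CPM) and the triosephosphate isomerase Tpi1 (613, 588, 779.7 and 657 CPM) passed it in neither.

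From triose to lactate, Gapdh was at 2852, 2665, 3277 and 2488 CPM and the phosphoglycerate kinase Pgk1 at 1565, 1396, 1850.0 and 1479 CPM. In Brca2mut/WT cells Gapdh was 1.32-fold lower (1.31 to 1.32) and Pgk1 lower by a log2 ratio of -0.32, just past the threshold. Pgam1 (570.0, 582, 719 and 583 CPM), Eno1 (862, 757, 1206 and 1006 CPM), the pyruvate kinase Pkm (909.7, 977, 1178 and 1005 CPM) and the lactate dehydrogenase Ldha (1247, 1356, 1479 and 1342 CPM) passed the fold in neither genotype. Mif, a cytokine that HIF can induce, was at 1739.5, 1401, 1662 and 1359 CPM and lay just inside the threshold in both genotypes, with log2 ratios of -0.31 and -0.29. Reads of Gapdh, Pgk1, Pgam1, Eno1, Ldha, Pkm, Tpi1 and Mif can be shared with near-identical processed copies in the genome, so their levels are uncertain.

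Basal cells and HR+ luminal cells gave the same direction. In basal cells 18 of 32 members were lower with HU in wild-type organoids, against 11.3% of 9763 genes, and 13 of 32 in Brca2mut/WT organoids, against 6.43%. In HR+ luminal cells 19 of 32 were lower in wild-type organoids, against 10.5% of 9565 genes, and 17 of 32 in Brca2mut/WT organoids, against 7.27%. In both genotypes 12 of 32 members were lower in basal cells (2.98% of genes) and 13 of 32 in HR+ luminal cells (2.26%). No member was higher past the fold in any of these 4 comparisons, where 11.3%, 7.01%, 8.9% and 9.05% of genes were. These lineages held fewer cells, 320 to 868 basal and 123 to 176 HR+ luminal cells in a library, and the lineages of 1 library are not independent cultures.

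Genes of other lists passed the fold in the same cells. In basal cells of wild-type organoids 8 of 8 cycling genes were higher with HU (median log2 ratio 0.83), against 11.3% of all genes. So were 7 of 12 dissociation genes and 4 of 8 basal markers. In basal cells of Brca2mut/WT organoids 4 cycling genes, 4 dissociation genes and 1 basal marker were lower, against 6.43% of all genes. Among HR+ luminal cells, 5 of 8 cycling genes were lower in wild-type organoids (10.5% of genes). In Brca2mut/WT organoids 6 were higher (9.05%). Some glucocorticoid response genes were higher with HU in both genotypes. In basal cells 2 of 5 and 4 of 5 were higher, against 11.3% and 7.01% of genes (medians 0.20 and 0.53). In HR+ luminal cells 3 of 6 were higher in each, against 8.9% and 9.05% (medians 0.43 and 0.58), and 1 lower in wild type. Tricarboxylic acid cycle genes had medians of 0.21 and 0.07 in basal and 0.12 and 0.21 in HR+ luminal cells. The part of these lists in the members' levels was not tested.

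Adm was at 40.5, 13.0, 65.3 and 44.1 CPM in basal cells and at 44.8, 16.0, 71.9 and 15.0 CPM in HR+ luminal cells, in the order of libraries above. That is 3.11-fold lower (2.68 to 3.62) and 1.48-fold lower (1.28 to 1.72) in basal cells of wild-type and Brca2mut/WT organoids, and 2.80-fold (2.09 to 3.80) and 4.79-fold lower (3.42 to 6.86) in HR+ luminal cells. Its HU levels were low in every lineage except basal cells of Brca2mut/WT organoids. Pfkfb3 was at 17.6, 4.65, 25.2 and 12.2 CPM in basal cells, 3.78-fold lower in wild-type (2.97 to 4.86) and 2.06-fold lower in Brca2mut/WT organoids (1.58 to 2.70). Ankrd37 was at 84.8, 29.1, 110.2 and 35.1 CPM in HR+ luminal cells, 2.91-fold (2.35 to 3.64) and 3.13-fold lower (2.49 to 3.98). P4ha2, under the level filter in HR- luminal cells, was at 66.6, 31.8, 75.3 and 46.7 CPM in basal cells and past the fold in both genotypes there.

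The contrast between the hypoxia response and glycolysis groups recurred. In basal cells 13 of 14 and 11 of 14 hypoxia response genes were lower in wild-type and Brca2mut/WT organoids, with median log2 ratios of -0.67 and -0.55. Of the glycolysis genes 2 of 14 and 1 of 14 were lower, with medians of -0.21 and -0.16. The glycolysis counts were near the shares of all genes lower in basal cells, 11.3% and 6.43%. In HR+ luminal cells 12 of 14 and 10 of 14 hypoxia response genes were lower (medians -0.83 and -0.58). Of the glycolysis genes 5 of 14 and 6 of 14 were lower there (medians -0.24 and -0.24), above the 10.5% and 7.27% of all genes. In the same wild-type cells 5 of 7 HR- luminal markers were lower too (median -0.77), with sums of 2901 CPM without HU and 1500 with it. In Brca2mut/WT organoids 2 of 7 were lower and 1 higher. Of the 5 glycolysis genes lower in wild type, all but Hk2 had higher levels in HR- than in HR+ luminal cells. The part of these markers in the glycolysis levels was not tested. Hif1a was lower past the fold in wild-type basal cells, at 123 CPM in the control and 87.7 in HU, and was at 116 and 122 CPM in the Brca2mut/WT pair. In HR+ luminal cells it was at 122, 140.2, 143 and 127 CPM, not past the fold in either genotype.

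Over all 6 comparisons, 10 of the 31 members compared in every lineage were lower past the fold each time, namely Vegfa, Adm, Ankrd37, Bnip3, Ndrg1, Egln3, P4ha1, Pfkfb3, Ddit4 and Hk2. Of 8488 genes compared in every lineage, 0.271% were. Lower by any amount in all 6 were 23 of 31 members and 7.07% of genes. The comparisons of 1 genotype use the same pair of libraries, so they are not 6 independent tests. In HR+ luminal cells Car9 was also lower in both genotypes, at 151, 53.6, 87.1 and 48.3 CPM.

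**Figure D2:**
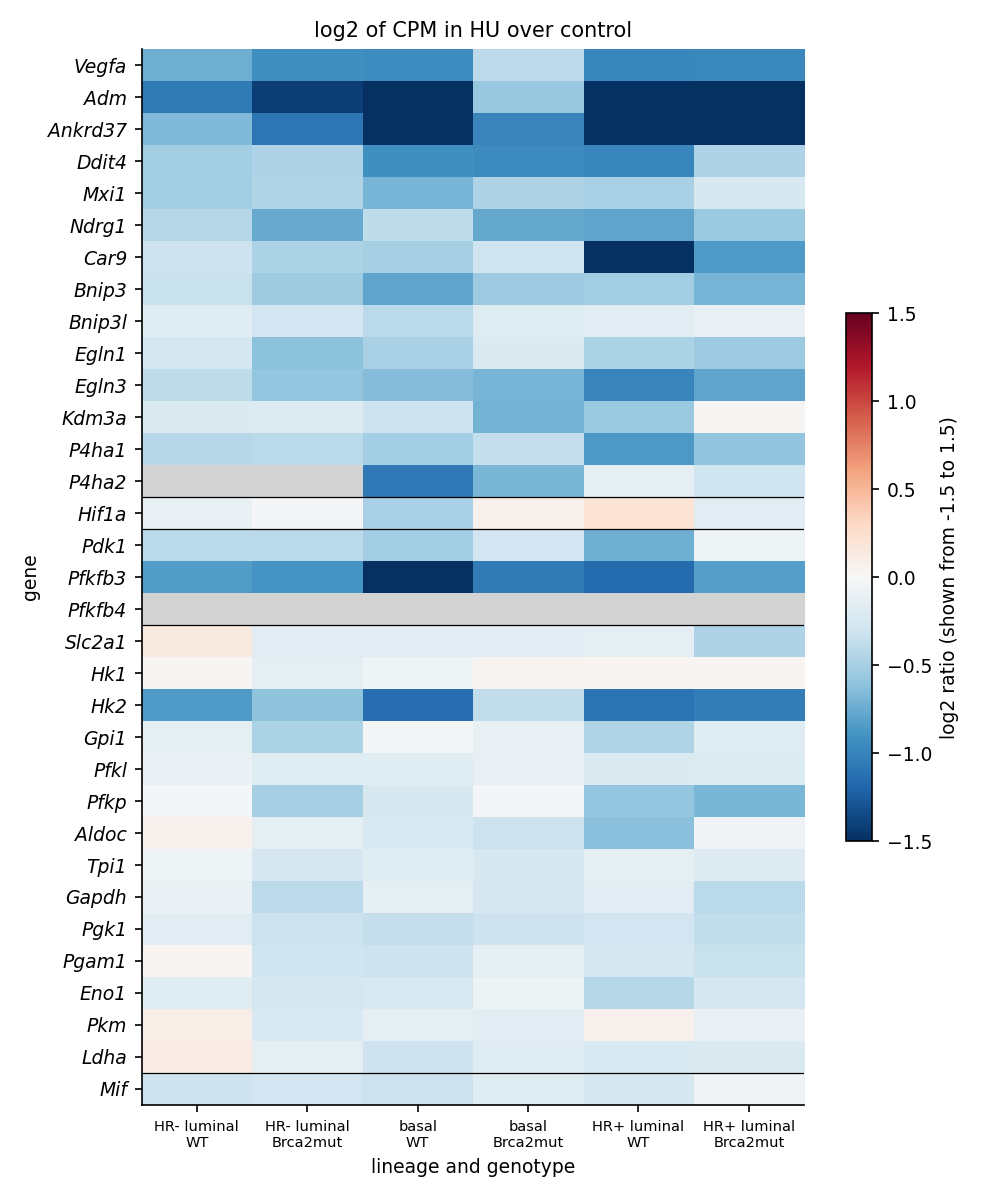
Log2 ratio of CPM in HU over control for each member (rows, grouped as hypoxia response, Hif1a, glycolysis control, glycolysis and Mif) in the 6 comparisons (columns). Blue is lower in HU, red is higher, grey was under the level filter, and values beyond 1.5 are drawn at the end of the scale. Adm, Ankrd37 and Pfkfb3 are blue in all 6 columns, and Hk2 is the only gene of the glycolysis block past the fold in all 6.

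The pools of a library differed widely in these genes. Over the 31 members, the highest pool was a median of 1.61 times the lowest without HU and 2.10 times with HU in wild-type cells, where all genes had medians of 1.35 and 1.28. In the Brca2mut/WT control and HU libraries the medians were 1.91 and 1.80, where all genes had 1.39 and 1.44. Pools with tags 2 and 4 were the low ones for most members in wild-type cells, and the tags made up different shares of the libraries. Of wild-type HR- luminal cells, tag 2 marked 212 without HU and 602 with it, and tag 4 marked 391 and 235. Without tag 2 of the wild-type HU library, 7 of 31 members were lower in place of 12. With each pool weighted equally, the count stayed within 1.5 times in this lineage. Shares of all genes are not given for these settings, so a shift of the members cannot be told from a general one.

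Set side by side by tag, the members were lower with HU within most tags, to unequal extents. A tag number does not pair cultures, since no key was given, so these ratios are descriptions. In wild-type HR- luminal cells, tags 1 to 4 had 9, 25, 5 and 21 of 31 members lower past the fold, where 6.23%, 18.4%, 6.19% and 9.49% of all genes were. In Brca2mut/WT cells the counts were 17, 26, 16 and 11 of 31, where 5.66%, 10%, 5.24% and 5.99% of all genes were. The median log2 ratio of the members in tags 1 to 4 was -0.22, -0.75, -0.01 and -0.48 in wild-type cells. That of all genes was 0.05, -0.06, -0.01 and 0.004, so tag 3 had no shift of the member median. In Brca2mut/WT cells the member medians were -0.35, -0.90, -0.37 and -0.23, where all genes had 0.03, 0.03, 0.03 and 0.07. Adm and Ddit4 were higher past the fold in tag 4 of the Brca2mut/WT pair, which rests on 117 HU cells, where 15% of all genes were higher.

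Lower by any amount in all 4 tags were 13 of 31 members in wild-type cells, against 16.6% of genes, and 21 of 31 in Brca2mut/WT cells, against 10.8%. Bnip3, Ankrd37, Egln3, P4ha1, Pdk1, Mxi1, Hk2, Eno1 and Mif were in both sets. In the wild-type set 8 were hypoxia response genes and 2 glycolysis genes, and in the Brca2mut/WT set 8 and 11. The median log2 ratio of the hypoxia response genes lay below that of all genes in each of the 8 tag comparisons, from -0.11 in tag 3 of the wild-type pair to -1.34 in tag 2 of the Brca2mut/WT pair. The glycolysis medians ran from 0.12 to -0.69 and lay above 0 in tags 1 and 3 of the wild-type pair. In tag 4 of the Brca2mut/WT pair the order was reversed, with a glycolysis median of -0.29 and a hypoxia response median of -0.22.

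**Figure D3:**
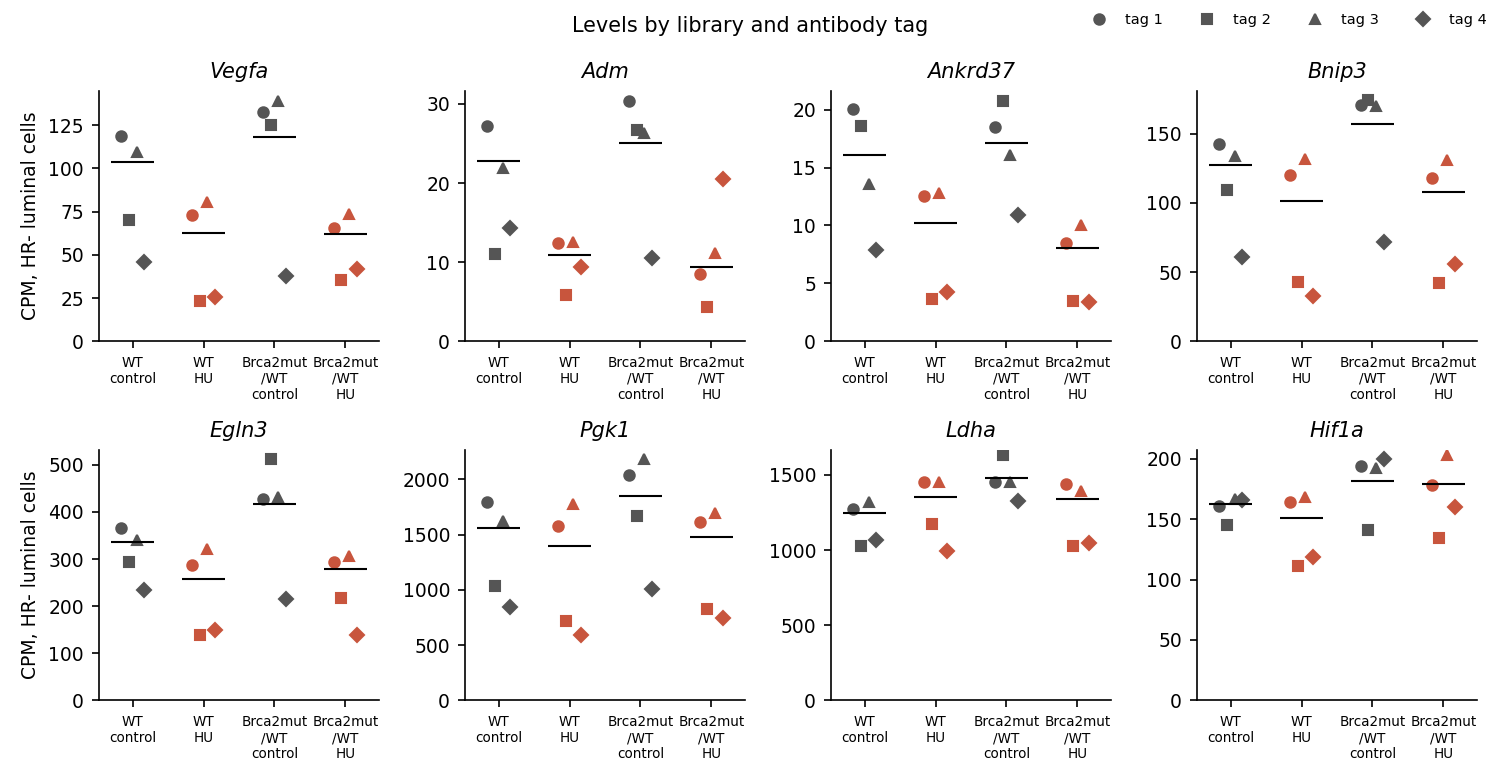
CPM in HR- luminal cells for 8 members, by library and antibody tag (symbols), with the level of the whole library as a line; grey is control and red is HU. For Vegfa and Bnip3, pools with tags 2 and 4 of the HU libraries lie lowest, and control and HU pools overlap. The whole-library level of Hif1a differs little between libraries of 1 genotype. Its wild-type HU pools with tags 2 and 4 lie below the control pools of the same tags.

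In basal cells, tags 1 to 4 of the wild-type pair had 10, 28, 8 and 24 of 32 members lower, where 7.09%, 9.75%, 6.71% and 10% of genes were. In the Brca2mut/WT pair, tags 1, 3 and 4 had 15, 20 and 15 lower, where 5.89%, 6.91% and 6.88% of genes were, and tag 2 held too few basal cells to compare. In the wild-type pair tags 2 and 4 had the most lower members in both lineages. Lower in all tags compared were 17 of 32 members in wild-type (12.3% of genes) and 27 of 32 in Brca2mut/WT organoids (12.6%), and 13 of the 14 hypoxia response genes in each. In HR+ luminal cells only tag 2 of the wild-type pair and tag 4 of the Brca2mut/WT pair could be compared, with 21 of 32 (9.68% of genes) and 20 of 32 members lower (7.6%). In basal cells the Brca2mut/WT count of 13 lower members over whole libraries depended on the pools. It was 7 without tag 3 of the control, 22 without its tag 4 and 21 with equal weights, with no share of all genes given.

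**Figure D4:**
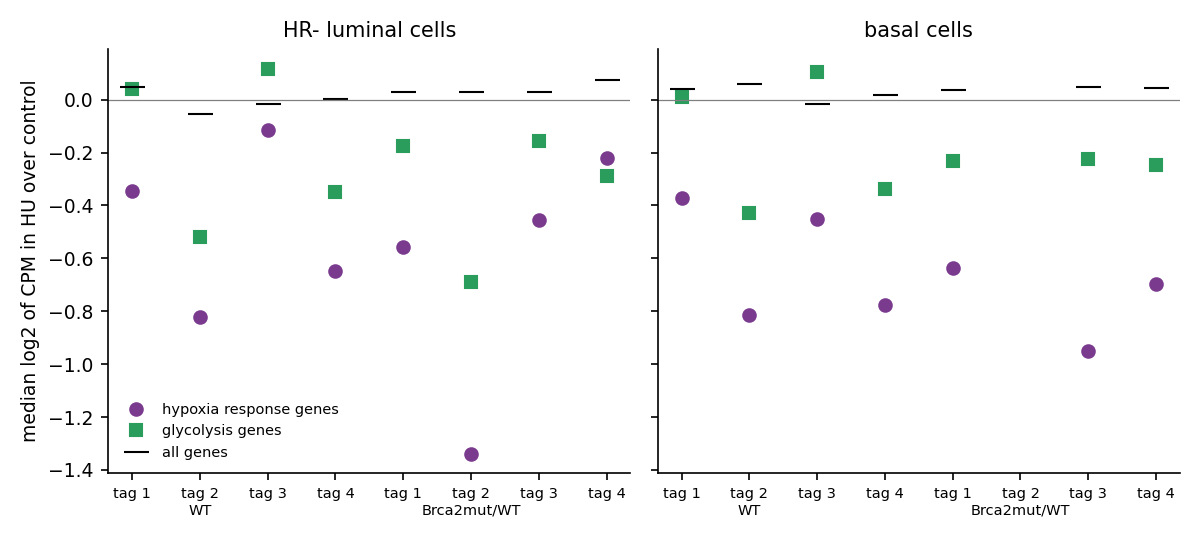
Median log2 ratio of CPM in HU over control within each antibody tag, for the hypoxia response genes (circles), the glycolysis genes (squares) and all genes (bars), in HR- luminal cells (left) and basal cells (right). Circles lie below the bars in every tag shown. Squares lie near or above the bars in tags 1 and 3 of the wild-type pair. For HR- luminal cells, the square lies below the circle in tag 4 of the Brca2mut/WT pair. Tag 2 of the Brca2mut/WT pair had too few basal cells.

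The share of cells with a UMI gave the same order. With each HR- luminal cell thinned to 5000 UMIs, Vegfa was detected in 35.2% of wild-type cells without HU (exact binomial 95% interval 33.7 to 36.7) and 24.7% with it (23.3 to 26.2), and in 38.7% (37.0 to 40.3) and 23.1% (21.5 to 24.8) of Brca2mut/WT cells. Without thinning the shares were 75.9%, 61.4%, 78.5% and 63.6%. In thinned basal cells they were 41.8%, 23.3%, 51.0% and 41.7%. None of the 3 lineages is known to lack Vegfa, so no background share could be set, and 124, 122, 288 and 198 shallower HR- luminal cells were left out.

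Before any HU, Brca2mut/WT HR- luminal cells had higher levels of several glycolysis genes than wild-type cells. Of 31 members 8 were higher past the fold in the Brca2mut/WT control, against 3.51% of genes, and 0 were lower, against 1.96%. These were Egln1 and the glycolysis genes Hk1, Gpi1, Pfkp, Tpi1, Pgam1, Eno1 and Pkm, with Eno1 the largest at 1206 CPM against 862 (log2 ratio 0.49). The median log2 ratio was 0.33 over the glycolysis genes and 0.14 over the hypoxia response genes, where that of all genes was 0.05. Summed, the glycolysis genes were at 10713 CPM without HU and 10372 with it in wild-type cells, and at 13139 and 10794 in Brca2mut/WT cells. The count was sensitive to the pools, being 2 without tag 2 of the Brca2mut/WT control, 13 without its tag 4 and 15 without tag 1 of the wild-type control. It was 4 with TMM factors in place of totals. Shares of all genes under these settings are not given. In basal cells, 11 members were higher in the Brca2mut/WT control, against 7.04% of genes, and Ankrd37 alone was lower, against 6.25%. The basal markers moved too, with 6 of 8 higher in the Brca2mut/WT control (Trp63, Acta2, Myh11, Oxtr, Cnn1 and Mylk; list median log2 ratio 1.23) and Krt5 lower, and of the squamous genes Krt10 and Krtdap were higher and Sbsn lower. Their part in the members' levels was not tested. The 11 members included Adm (40.5 CPM in wild type and 65.3 in Brca2mut/WT) and Egln3 (140.5 and 238). Among HR+ luminal cells 5 were higher, against 7.43%, and Car9 and Pdk1 were lower, against 7.14%, where 8 of 8 cycling genes were lower (median log2 ratio -1.87).

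The lineages were compared with the 4 libraries as replicates, within library by edgeR's quasi-likelihood test with TMM scaling and Benjamini-Hochberg adjustment over 9892 genes, with Krt14 and Areg left out of the counts. Against HR- luminal cells, 11 of 32 members were higher in basal cells (34.2% of genes were) and 16 lower (34.4%). The HR+ luminal comparison had 16 higher (34.7% of genes) and 9 lower (34.9%). The scaling shifts all genes: with totals in place of TMM, the median log2 difference moved up by 0.14 for basal and 0.19 for HR+ luminal cells. No call changed direction, but those of Bnip3, Mxi1, Pkm and Ldha in basal cells and Gpi1 in HR+ luminal cells were lost. The 4 libraries mix both genotypes and treatments. With the library as a block, the p-values measure how the lineage difference varies over libraries, not how the levels themselves vary. The estimate of that spread is shared across genes.

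HR- luminal cells stood out for Aldoc, at 959.7 ± 88.0 CPM (SD, n = 4 libraries) while basal cells had 114 ± 13.0 and HR+ luminal cells 97.2 ± 16.9. That is 9.31-fold and 11.4-fold higher in HR- luminal cells (adjusted p = 2.3e-09 and 1.7e-09), and every library showed it. The major aldolase Aldoa, no member and named after its values were seen, was also higher there than in basal cells, at 3764 ± 274 CPM against 1609 ± 165 (adjusted p = 1.0e-08). Egln3 was at 322 ± 70.9 CPM in HR- luminal, 155 ± 61.9 in basal and 60.1 ± 21.2 in HR+ luminal cells (adjusted p = 2.6e-05 and 2.2e-07). Hk1 was at 170.2 ± 19.1, 62.1 ± 4.14 and 117 ± 18.2 CPM (adjusted p = 8.3e-09 and 1.7e-06). The levels of Hk1 in the 3 lineages did not overlap between libraries.

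Car9 and Pfkl were among further members higher in HR- luminal cells than in both other lineages. Car9 was at 218 ± 35.3, 132 ± 31.7 and 85.4 ± 47.6 CPM (adjusted p = 0.0034 and 9.0e-05 by edgeR). Pfkl was at 389 ± 49.8, 228 ± 20.7 and 218 ± 18.7 CPM (adjusted p = 2.0e-07 and 1.0e-07 by edgeR). Hif1a itself was highest in HR- luminal cells, at 168 ± 14.7, 113 ± 16.8 and 133 ± 10.3 CPM (adjusted p = 6.9e-05 and 0.00078 by edgeR). Eno1 was 1.39-fold higher in HR- luminal than in basal cells and 1.88-fold higher than in HR+ luminal cells (adjusted p = 5.6e-05 and 4.4e-07 by edgeR). In the same order, Gpi1 was 1.30-fold and 1.28-fold higher (adjusted p = 0.0013 and 0.0018) and Pfkp 1.55-fold and 1.66-fold higher (adjusted p = 0.0014 and 0.00075).

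P4ha2 entered this comparison only through the lineages where it was high, so its levels are a description: 4.20 ± 1.53 CPM in HR- luminal, 55.6 ± 19.8 in basal and 95.5 ± 16.8 in HR+ luminal cells. Without it, 10 of 31 members were higher in basal and 15 of 31 in HR+ luminal cells. Of members lower in HR- luminal cells, Ddit4 was at 32.7 ± 6.35, 157 ± 57.7 and 262 ± 77.5 CPM (adjusted p = 7.5e-08 and 1.5e-08), and Ndrg1 at 76.4 ± 18.4, 196 ± 58.0 and 216 ± 58.4 CPM (adjusted p = 1.4e-06 and 9.7e-07). For both genes each library had the lower level in HR- luminal cells. Ankrd37 was at 12.9 ± 4.41, 24.1 ± 12.3 and 65.1 ± 39.4 CPM (adjusted p = 0.0049 and 3.1e-06), and Adm at 17.0 ± 8.02, 41.1 ± 21.6 and 37.1 ± 27.2 CPM (adjusted p = 0.0059 and 0.034). The call of Adm in HR+ luminal cells was lost without either control library, and that of Ankrd37 in basal cells without the wild-type control. Without the library block, the calls of Adm in both lineages and of Ankrd37 in basal cells were lost.

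The glucose transporter Slc2a1 was at 64.6 ± 4.76, 111 ± 12.4 and 105 ± 21.4 CPM (adjusted p = 4.0e-05 and 0.00033). Pfkfb3 and Hk2 were higher in HR+ luminal cells only, at 33.2 ± 12.8 and 62.8 ± 27.1 CPM against 11.9 ± 4.00 and 26.1 ± 7.46 in HR- luminal cells (adjusted p = 0.00041 and 1.7e-05). In basal cells their differences from HR- luminal cells, with log2 values of 0.04 and -0.03, did not pass (adjusted p = 0.86 and 0.83). So the hexokinases differed in the lineage where each was highest, Hk1 in HR- luminal cells and Hk2 in HR+ luminal cells. Hk1 still had the higher level of the pair in HR+ luminal cells, at 117 against 62.8 CPM, and in basal cells, at 62.1 against 28.6 CPM.

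**Figure D5:**
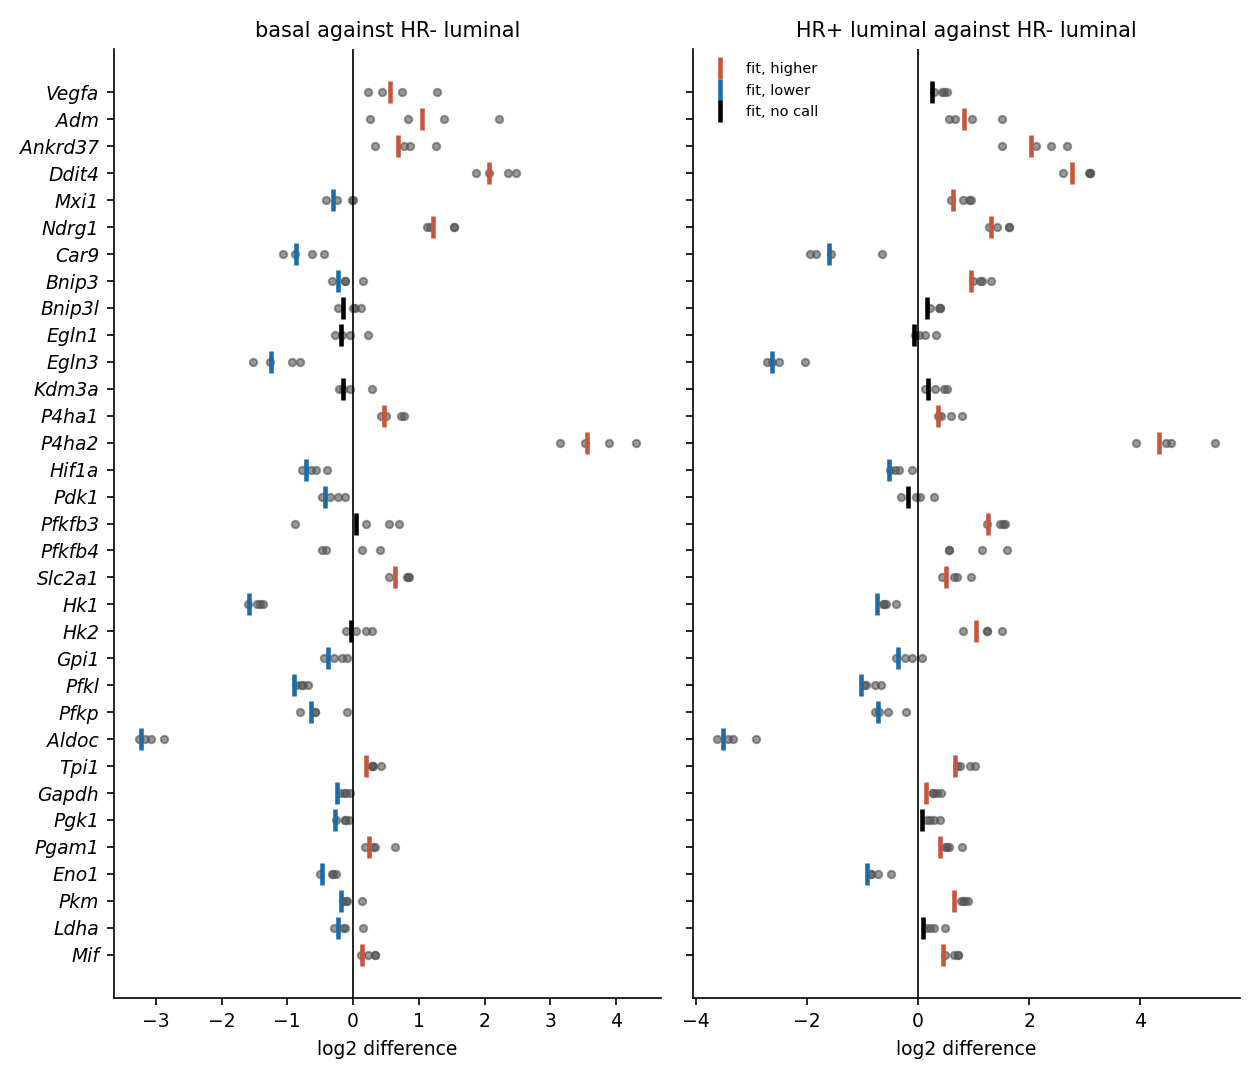
Log2 difference of each member between basal (left) or HR+ luminal cells (right) and HR- luminal cells. Grey points are the 4 libraries by CPM, and bars are the edgeR estimate with TMM scaling, red for higher, blue for lower and black for no call at adjusted p of 0.05. Aldoc, Egln3, Hk1, Pfkl and Car9 lie left of 0, and P4ha2, Ddit4 and Ndrg1 right of it, in all 4 libraries.

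Other genes of the same pathways were read from lists of known HIF targets, glycolysis genes outside the members and the tricarboxylic acid cycle. Of 23 further HIF targets in HR- luminal cells, 6 were lower with HU and 2 higher in wild-type organoids (median log2 ratio -0.20). In Brca2mut/WT organoids 8 were lower and 2 higher (median -0.30). Of all genes, 5.72% were lower and 3.6% higher in wild-type, and 4.05% lower and 3.06% higher in Brca2mut/WT organoids. Ero1l, the oxidase that drives disulphide formation in the endoplasmic reticulum, was at 356, 231, 437 and 214 CPM, 1.54-fold (1.51 to 1.57) and 2.04-fold lower (2.00 to 2.08). Stc1, a glycoprotein hormone, was at 10.4, 9.61, 10.96 and 6.77 CPM. Hmox1, the haem oxygenase that oxidative stress also induces, went the other way at 7.85, 21.1, 8.71 and 19.1 CPM. Both of its HU libraries were above both controls. The other further HIF targets higher past the fold were Hilpda in wild-type and Errfi1 in Brca2mut/WT organoids.

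Of 10 further glycolysis genes and 16 genes of the tricarboxylic acid cycle compared, 0 passed the fold in HR- luminal cells of either genotype. The largest ratios there were those of Ldhb (104, 129, 109 and 134 CPM), Pdk3 and the lactate transporter Slc16a1 in the first list and Mdh2 (153, 188, 168 and 170.4 CPM), Sdhb and Idh3g in the second. Of 6 further oxygen-sensing genes (Epas1, Arnt, Vhl, Hif1an, Egln2 and Cited2), 0 passed the fold in HR- luminal cells of either genotype. Cited2 was lower past it in wild-type basal cells and in HR+ luminal cells of both genotypes. Among HR+ luminal cells, Arnt was lower in wild-type organoids, and Vhl was lower and Egln2 higher in Brca2mut/WT organoids. In basal cells of wild-type organoids 19 of 26 further HIF targets were lower and 1 higher, where 11.3% of genes were lower and 11.3% higher. In basal cells of Brca2mut/WT organoids 7 were lower and 1 higher, where 6.43% of genes were lower and 7.01% higher. Of 25 further HIF targets in HR+ luminal cells, 13 were lower and 0 higher in wild-type organoids (10.5% and 8.9% of genes). In Brca2mut/WT organoids 8 were lower and 4 higher (7.27% and 9.05% of genes).

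Genes of other lists also passed the fold in the same HR- luminal cells. The shares of all genes past it were 5.72% lower and 3.6% higher in wild-type organoids. In Brca2mut/WT organoids they were 4.05% lower and 3.06% higher. A count of 1 gene in a list is not a shift of that list. Of 8 cycling genes, 0 passed the fold in wild-type and 7 were lower in Brca2mut/WT organoids, while the share of HR- luminal cells scored as cycling was 5.75%, 5.73%, 7.46% and 6.84%. Of 12 genes induced by tissue dissociation, 5 were lower in wild-type, and 3 lower and 2 higher in Brca2mut/WT organoids. Of 5 glucocorticoid response genes, 1 was higher in wild-type and 3 in Brca2mut/WT organoids, and of 10 genes of the amino acid stress response, 2 and 3 were higher and 1 and 1 lower. With cycling cells left out, the counts of lower members stayed within 1.5 times of those above, and the part of the other lists in the members' levels was not tested.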

How the data were processed

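Single-cell RNA-seq was done on dissociated mammary organoids with 10x Genomics version 3 chemistry. The deposited UMI counts were made by the authors with Cell Ranger, version 6.0.2 per the submitters' processing notes and 6.1.1 per the file headers; the build of the counting reference could not be settled from the 32285 genes listed. The series text states 34200 cells, the deposited matrices hold 33268 barcodes, and the stated filter of 1000 to 6000 genes and under 5% mitochondrial UMIs left 17360. No doublet caller was run; 210 kept cells carried several tags. Lineages were set per cell by Krt14 and Areg, and 566 kept cells met no single rule. UMIs were summed per lineage, library and tag and divided by all gene UMIs. Tags were called by splitting each tag's log counts into 2 classes per library, and pools under 20 cells were not given. Where a symbol had 2 identifiers the row with more UMIs was used. Within a genotype, HU was compared with control without a test, with exact Poisson and conditional binomial intervals, over genes with a mean of at least 5 CPM. Lineages were compared with edgeR 4.0.16 (quasi-likelihood test, TMM, library as a block, adjusted p under 0.05), with DESeq2 1.42.0 as an alternative. HU over both genotypes was fitted the same way with genotype as a block. The pipelines were run on simulated counts. Those for the fold calls held counting error only, and those for the HU fit held no genotype effect. Neither took the spread between cultures from the data. Gene positions are those of GENCODE vM21 and promoters those of RefSeq, both on GRCm38. The members and gene lists were chosen with earlier results of these data known. Members detailed by pool were those past the fold in both genotypes in HR- luminal cells, at most 12, plus Hif1a. Lineage examples were the 6 largest called differences each way, plus Gpi1 and Pfkp. HU levels from each other list were given for up to 3 genes, by their largest HU ratio.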

Additional observations from a re-analysis of the deposited data

Results flagged for a closer look

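The log2 ratio of HU over control had opposite signs in the 2 genotypes for 11 member values over the 3 lineages. For 6 of them both counting intervals excluded 0, and these 6 were above 0 in wild-type and below 0 in Brca2mut/WT organoids. With 1 library per condition the difference between genotypes was not tested. In HR- luminal cells, the ratio in Brca2mut/WT minus that in wild type was -0.30 for Slc2a1 (log2 ratios 0.14 and -0.17 in wild type and Brca2mut/WT), -0.19 for Aldoc (0.06 and -0.13), -0.33 for Pgam1 (0.03 and -0.30), -0.33 for Pkm (0.10 and -0.23) and -0.26 for Ldha (0.12 and -0.14). In HR+ luminal cells it was -0.18 for Pkm. These 6 values belong to 5 glycolysis genes, and none passed the fold in either genotype. In HR- luminal cells, the levels of these genes given above differed less between the HU libraries of the genotypes than between the control libraries. The count of members higher in the Brca2mut/WT control was sensitive to the pools. The other 5 values, for which an interval included 0, were those of Hk1 in HR- luminal and basal cells, Hif1a in basal and HR+ luminal cells and Kdm3a in HR+ luminal cells; Hif1a in basal and Kdm3a in HR+ luminal cells were lower past the fold in wild type. The wild-type values of Aldoc and Pgam1 lay below 0 with each tag pool weighted equally (-0.07 and -0.11), so their signs did not then differ between genotypes.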

How the results depend on the processing

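The labels give no replicate numbers that groups share, so the only pairing of HU with control was by genotype, as a block in the edgeR fit over both genotypes. Without that block the members called lower fell from 19 to 6 in HR- luminal and from 10 to 0 in basal cells. Over all genes, those called lower fell from 777 to 49 and from 119 to 0. No called member changed direction under any alternative run. In basal cells of Brca2mut/WT organoids, the 13 lower members became 21 with each tag pool weighted equally, and 7 to 22 with 1 pool left out. The 8 members higher in the Brca2mut/WT control in HR- luminal cells became 4 with TMM factors, 13 with equal weights and 2 to 15 with 1 pool left out. Without the library block, basal cells had 4 members higher and 10 lower than HR- luminal cells, in place of 11 and 16. With 1 pool left out, lower members ranged from 7 to 18 in HR- luminal cells of wild-type organoids and from 10 to 18 in HR+ luminal cells of Brca2mut/WT organoids, where 0 to 1 were higher. That fit and leaving out cells whose barcode is in another library were chosen after seeing the data. Equal weights were not run for HR+ luminal cells, which had too few pools. The cause of these changes was not tested. Apart from the fit without the genotype block, no share of all genes is given for the changed settings, so these counts describe the members only. With 1 library a condition, no value carries the spread between cultures.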
